A study of Mus musculus with 6 samples.

Results

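The genes described here are 10 genes of smooth muscle and of the mural cells that wrap blood vessels: Acta2, Actg2, Myh11, Mylk, Tagln, Cnn1, Smtn, Lmod1, Rgs5 and Pdgfrb. They are 10 of the 19938 genes that the arrays measured with a probe of exactly 1 gene symbol. The genes were chosen by name, with earlier results of these arrays known, and the probe of each gene was selected on its mean log2 value over all 6 arrays, the highest being taken. Each symbol had 1 such probe, so no probe was in fact preferred over another. Of the 10, Rgs5 and Pdgfrb are not parts of the contractile machinery but markers of pericytes and vascular smooth muscle, and they are treated as a group of their own.

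The arrays came from whole hearts of mice aged 12 months, 3 with a knockout of Cenpf and 3 wild-type, with 1 array per heart and no treatment in either group. Cenpf encodes a large kinetochore protein that binds microtubules, and the study asked how hearts without it differ from wild-type hearts. The hearts of a group are labelled as biological replicates, while the sources used here give neither the strain and sex of the mice nor which part of Cenpf was removed and in which cells. How finely these genes can be compared is limited by the number of arrays, 3 in each group.

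Smooth muscle cells form the wall of coronary arteries, arterioles and veins, and pericytes sit on the capillaries between them. Contraction begins when calcium and calmodulin switch on myosin light chain kinase, which phosphorylates the light chain of smooth muscle myosin and lets it pull on thin filaments of smooth muscle actin. Many contractile genes are transcribed through serum response factor and its partner myocardin, which act at a DNA motif called the CArG box, and smooth muscle cells that return to growth lose contractile transcripts. In a whole heart these transcripts come from a small part of the tissue, and fewer cells of a type and less RNA per cell cannot be told apart.

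Cenpf itself read 6.35, 6.10 and 6.68 on the log2 scale in the knockout hearts, against 8.75, 8.54 and 8.04 in the wild-type hearts. It fell by 2.07 (standard error 0.21, limma, adjusted p = 0.0286), and every knockout value was below every wild-type value, so the labels held in every array. Cenpf was called under 9 of 15 alternative settings, with limma adjusted p up to 0.281. Of the 3 knockout values 2 were below the background level, and whether the probe lies in the deleted part is not known here. A background level of 6.35 was taken from receptor genes of the olfactory and vomeronasal organs, and all 10 genes had means above it in both groups. Heart muscle markers were detected as 14 of 14 genes and pericyte markers as 19 of 20. The arrays did not fall into their groups evenly: over 15510 probes above background, wild-type replicate 3 differed from the 3 knockout arrays by 0.257, 0.230 and 0.228 (root mean square, log2), and from the other wild-type arrays by 0.304 and 0.301. It thus lay nearer the knockout arrays than its own group. Knockout replicate 1 was also nearer to wild-type replicate 3 (0.257) than to knockout replicates 2 and 3 (0.287 and 0.264). Results that turn on wild-type replicate 3 are given with and without it. Leaving it out widens the gap of any gene in which it alone among the wild-type hearts read like the knockout hearts. A call made only without it is therefore no separate support for a difference.

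None of the 10 genes passed the test between knockout and wild-type hearts. At an adjusted p under 0.05 (limma, Benjamini-Hochberg over 21789 probes) 0 of 10 were called, where 0.0275% of all probes were. The differences nearest to a call were in Acta2 and Actg2, both lower in knockout hearts, and Myh11, higher. These 3 of 10 reached an unadjusted p under 0.05, where 9.9% of all probes did. In 1 of 10, Myh11, the knockout and wild-type values did not overlap, where 14.8% of all probes showed no overlap. Of the 10 differences 5 were positive and 5 negative. Their median was -0.0063 and their quartiles were -0.20 and 0.060, beside a median of -0.0060 and quartiles of -0.12 and 0.10 over all genes.

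**Figure D1:**
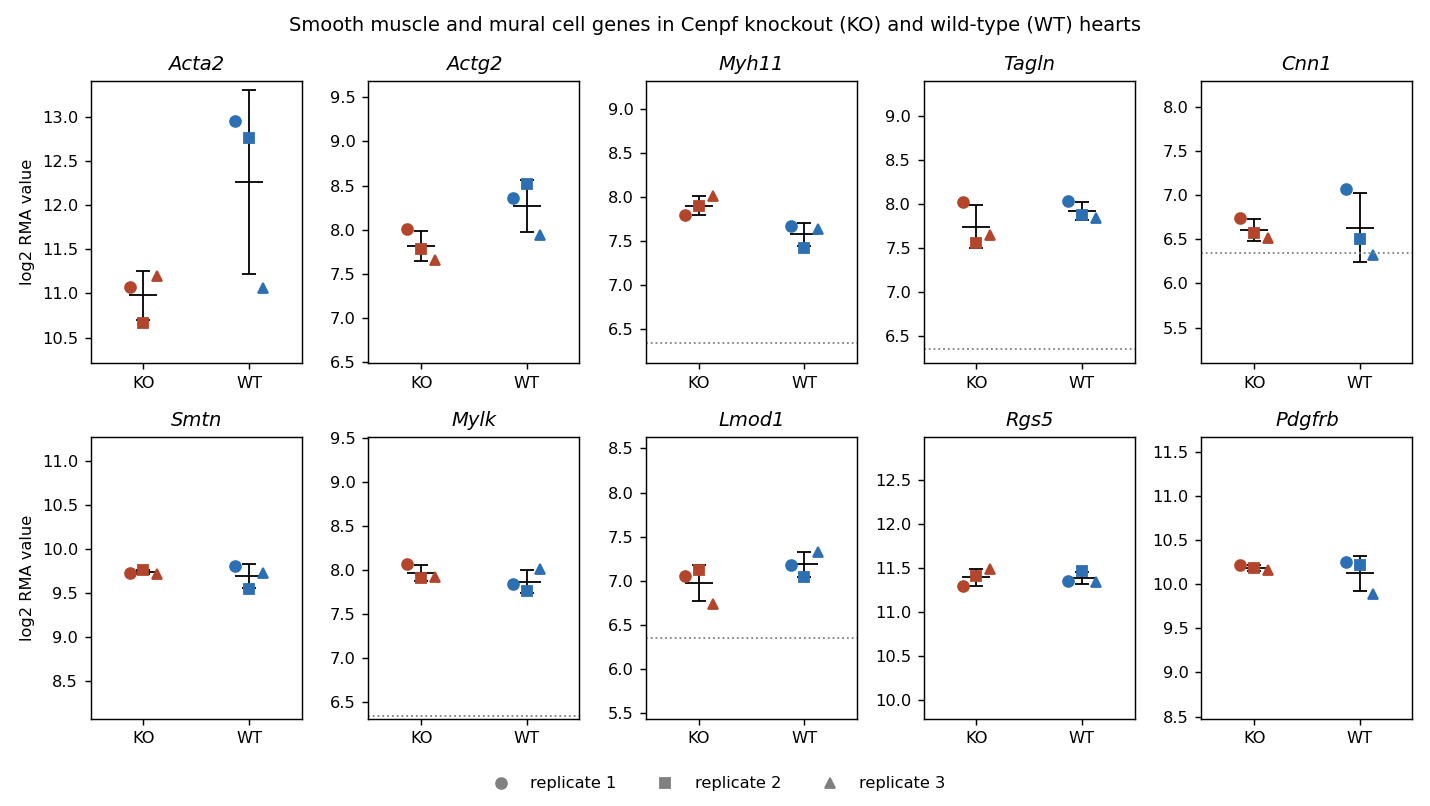
Log2 RMA values of the 10 genes in knockout (KO, red) and wild-type (WT, blue) hearts, 1 panel per gene with the same log2 span; points are arrays, horizontal bars the group means, error bars 1 SD (n = 3) and the dotted line the background level of 6.35 where it falls in the panel. In Acta2 the wild-type arrays split, with replicate 3 at 11.07 among the knockout arrays, and in Myh11 alone the groups do not overlap.

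The smooth muscle actins held both of the larger negative differences. Acta2 encodes smooth muscle alpha actin, the main actin of vascular smooth muscle thin filaments, which myofibroblasts make as well. Its values were 11.07, 10.66 and 11.20 in the knockout hearts, against 12.96, 12.76 and 11.07 in the wild-type hearts. All knockout hearts were low, wild-type replicates 1 and 2 were high, and wild-type replicate 3 lay inside the knockout range, so the groups overlapped. The means were 10.98 ± 0.28 in knockout and 12.26 ± 1.04 in wild-type hearts (SD, n = 3 each), a difference of -1.28 with a standard error of 0.44 and a 95% interval from -2.30 to -0.27. On the linear scale this is 2.44-fold lower in the knockout hearts. It did not pass (limma, adjusted p = 0.455), and permuting the hearts exactly, two-sided, gave p = 0.3.

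The spread of Acta2 in wild-type hearts was at the 99.9th percentile of all genes' wild-type SDs, while in knockout hearts it was at the 89.5th percentile. The size of its difference was at the 99.8th percentile. Without wild-type replicate 3 the difference was -1.88 with a standard error of 0.17, and Acta2 was then called (limma, adjusted p = 0.00699). In that fit 1.34% of all probes were called, and Acta2 was the 1 call among the 10 genes. Without any other array it was not called, with adjusted p between 0.444 and 0.818 and differences between -1.40 and -0.94. The call therefore rests on which wild-type hearts are counted.

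The promoter of Acta2 is shown because it is the 1 promoter with CArG boxes among the 6 of the 10 genes whose promoters were at hand (Acta2, Mylk, Cnn1, Smtn, Lmod1 and Rgs5). A CArG box was searched as CC, 6 middle bases and GG, on both strands, with 5 or 6 of the 6 middle bases being A or T; overlapping matches were allowed. Next to it stand Myl9, the regulatory light chain of smooth muscle myosin, whose values followed the same arrays as Acta2, and Acta1, the skeletal muscle actin gene, whose difference had the opposite sign. Each line gives the 250 bases before the start of transcription, 5′ to 3′ on the gene's strand, from RefSeq on GRCm38.p6, with CArG boxes in capitals. Acta2 lies on the minus strand at chr19:34255374-34255623, Myl9 on the plus strand at chr2:156775214-156775463 and Acta1 on the minus strand at chr8:123894776-123895025.
Acta2: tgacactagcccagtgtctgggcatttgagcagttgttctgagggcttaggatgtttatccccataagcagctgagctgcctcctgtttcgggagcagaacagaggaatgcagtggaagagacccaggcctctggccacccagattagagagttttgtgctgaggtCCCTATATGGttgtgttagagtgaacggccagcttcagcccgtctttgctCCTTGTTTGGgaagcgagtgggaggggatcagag
Myl9: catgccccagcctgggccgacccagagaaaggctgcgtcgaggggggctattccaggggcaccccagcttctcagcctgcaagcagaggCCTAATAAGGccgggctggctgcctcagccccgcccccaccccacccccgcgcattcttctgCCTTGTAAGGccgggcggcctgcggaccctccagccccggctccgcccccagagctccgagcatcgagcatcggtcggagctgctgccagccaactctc
Acta1: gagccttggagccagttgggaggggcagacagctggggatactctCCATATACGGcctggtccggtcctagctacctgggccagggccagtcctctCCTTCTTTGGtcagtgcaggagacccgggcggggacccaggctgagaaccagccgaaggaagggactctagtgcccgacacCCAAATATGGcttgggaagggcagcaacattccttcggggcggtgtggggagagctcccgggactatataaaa
Acta2 had 2 boxes, beginning 84 and 34 bases before the start, both with 5 of 6 middle bases A or T. Myl9 had 2, at 161 and 99 bases, and Acta1 had 3, at 205, 154 and 73 bases. In windows from 250 bases before to 50 after the start, 9.98% of 32851 promoters held at least 1 such box and 0.822% held 2 or more. Of 41 other genes of the cytoskeleton and paralog lists with a promoter at hand, 14 held at least 1. A match describes the letters only and names neither a bound site nor a cause of the values.

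Actg2 encodes smooth muscle gamma actin, the main actin of visceral smooth muscle, also present in vessels. It read 8.005, 7.78 and 7.66 in the knockout hearts, against 8.36, 8.51 and 7.94 in the wild-type hearts. Wild-type replicates 1 and 2 were again the highest, and wild-type replicate 3 lay below knockout replicate 1, so the groups overlapped by 1 heart on each side. The difference was -0.46 with a standard error of 0.16 and a 95% interval from -0.83 to -0.085 (limma, adjusted p = 0.457; exact two-sided permutation p = 0.2). Without wild-type replicate 3 it was -0.62 and was still not called (adjusted p = 0.0909). Actin proteins are nearly identical, and their coding sequences are similar. The probe sequences were not used here, and how far the actin probes read each other's transcripts was not tested.

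Actc1, the cardiac actin of heart muscle cells, differed by 0.032 (adjusted p = 0.932), or by -0.0019 without wild-type replicate 3. Acta1 read 13.27, 12.31 and 12.50 in the knockout hearts, against 11.84, 11.67 and 12.42 in the wild-type hearts, a difference of 0.72 that did not pass (adjusted p = 0.472). Acta1 was thus highest in knockout replicate 1 and lowest in the wild-type hearts where Acta2 was high.

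Myosin and its kinase did not follow the actins. Myh11 encodes smooth muscle myosin heavy chain, the motor of contraction and the most restricted marker of the smooth muscle lineage. It read 7.79, 7.89 and 8.01 in the knockout hearts, against 7.67, 7.42 and 7.63 in the wild-type hearts. Every knockout heart lay above every wild-type heart. The means were 7.90 ± 0.11 and 7.57 ± 0.13 (SD, n = 3 each) in knockout and wild-type hearts, a difference of 0.32 with a standard error of 0.11 and a 95% interval from 0.069 to 0.58. It did not pass (limma, adjusted p = 0.455), and the exact two-sided permutation p was 0.1, the smallest that 3 against 3 hearts can give. The difference stayed positive without each array in turn, from 0.25 to 0.38, and wild-type replicate 3 did not stand apart in this gene.

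Mylk encodes myosin light chain kinase, which starts contraction. Its values were 8.07, 7.91 and 7.92 in the knockout hearts, against 7.84, 7.76 and 8.01 in the wild-type hearts. The groups overlapped through wild-type replicate 3, which was above knockout replicates 2 and 3. The difference was 0.095, with a 95% interval from -0.15 to 0.34 (limma, adjusted p = 0.787).

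**Figure D2:**
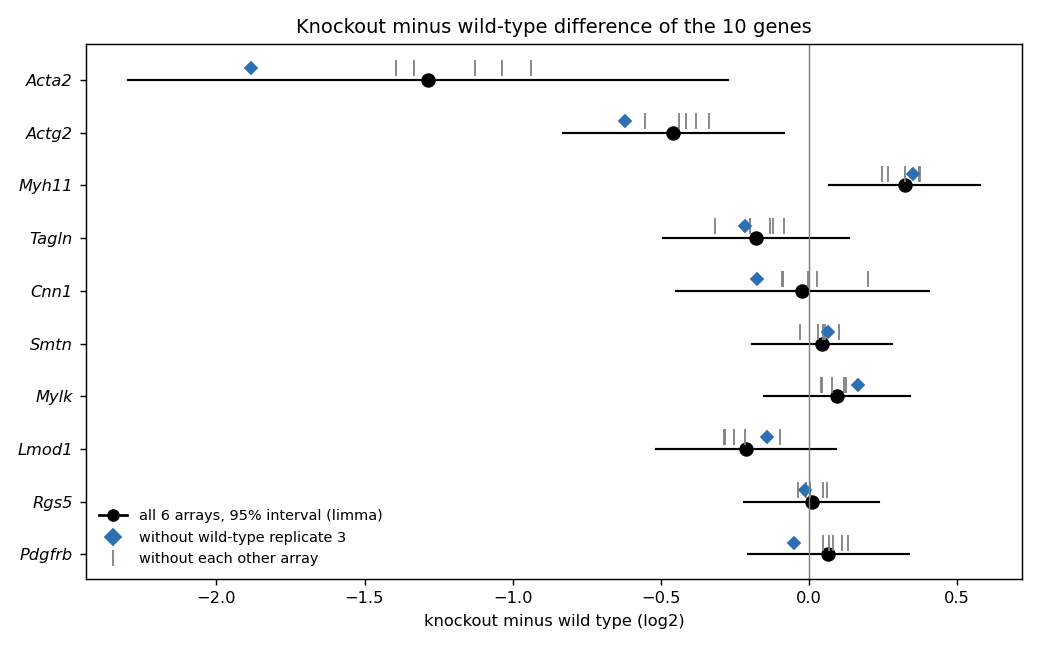
Knockout minus wild-type difference (log2) of each of the 10 genes; circles and lines are the limma estimate and its 95% interval over all 6 arrays, diamonds the estimate without wild-type replicate 3 and ticks the estimates without each other array. Acta2 moves from -1.28 to -1.88 without that heart, Actg2 stays below 0 and Myh11 above 0 in every setting, and Rgs5 and Pdgfrb lie around 0.

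The thin filament regulators overlapped between the groups in every case, and each 95% interval included 0. Tagln encodes transgelin, or SM22 alpha, a calponin-related protein that binds actin filaments. It read 8.02, 7.56 and 7.65 in the knockout hearts, against 8.03, 7.88 and 7.84 in the wild-type hearts. Knockout replicate 1 was level with the wild-type hearts and the other knockout hearts were below them. The difference was -0.18, with a 95% interval from -0.49 to 0.14 (limma, adjusted p = 0.686). It was -0.32 without knockout replicate 1 and -0.086 without knockout replicate 2, and was called in neither fit.

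Cnn1 encodes calponin 1, which binds actin and slows myosin in differentiated smooth muscle. It lay close to the background level, with 6.75, 6.57 and 6.51 in the knockout hearts, against 7.07, 6.50 and 6.32 in the wild-type hearts, and wild-type replicate 3 was below the background level. The wild-type hearts spanned the knockout hearts on both sides. The difference was -0.022, with a 95% interval from -0.45 to 0.41 (limma, adjusted p = 0.980), and its sign changed with the array left out.

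Smtn encodes smoothelin, a thin filament protein found in contractile smooth muscle. It read 9.73, 9.76 and 9.72 in the knockout hearts, against 9.81, 9.54 and 9.73 in the wild-type hearts. The knockout hearts were nearly identical to each other and lay inside the wild-type range. The difference was 0.044, with a 95% interval from -0.19 to 0.28 (limma, adjusted p = 0.911).

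Lmod1 encodes leiomodin 1, which starts new actin filaments in smooth muscle. Its values were 7.05, 7.12 and 6.74 in the knockout hearts, against 7.18, 7.04 and 7.33 in the wild-type hearts. Knockout replicate 3 was the lowest and wild-type replicate 3 the highest, whereas in Acta2 wild-type replicate 3 was the lowest wild-type heart. The difference was -0.21, with a 95% interval from -0.52 to 0.090 (limma, adjusted p = 0.614).

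The mural cell genes overlapped between the groups. Rgs5 encodes a regulator of G protein signalling that shortens contractile signals and marks pericytes and arterial smooth muscle. It read 11.29, 11.40 and 11.48 in the knockout hearts, against 11.35, 11.46 and 11.34 in the wild-type hearts. The values of both groups were interleaved, and the difference was 0.0091, with a 95% interval from -0.22 to 0.24 (limma, adjusted p = 0.985).

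Pdgfrb encodes the receptor through which endothelial platelet-derived growth factor B recruits pericytes. Its values were 10.22, 10.18 and 10.16 in the knockout hearts, against 10.26, 10.22 and 9.89 in the wild-type hearts. Wild-type replicate 3 was the lowest of all, and the other 5 hearts were close together. The difference was 0.065, with a 95% interval from -0.21 to 0.34 (limma, adjusted p = 0.880), and -0.049 without that heart. The intervals of Rgs5 and Pdgfrb reach to both sides of 0.

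Across the hearts, the 10 genes did not move as a block. Wild-type replicate 1 held the highest value of 5 genes, knockout replicate 3 of 2, and knockout replicate 1 and wild-type replicates 2 and 3 of 1 each. As means of the 8 contractile genes, each centred on its own mean, the knockout hearts stood at -0.0091, -0.16 and -0.14, against 0.29, 0.11 and -0.085 in the wild-type hearts. Without Acta2 the same means were 0.068, -0.050 and -0.11 in the knockout hearts, against 0.15, -0.040 and -0.018 in the wild-type hearts. The gap between the groups in the 8-gene mean was thus carried largely by Acta2.

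Some other genes of the smooth muscle cytoskeleton showed the array order of Acta2, with wild-type replicates 1 and 2 as the highest hearts: 6 of 31 measured (19.4%), where 14.4% of all genes did. Of 32 such genes listed, 0 were called, with a median difference of 0.035. At an unadjusted p under 0.05, 2 were lower and 2 higher, where 9.9% of all probes reached it in either direction. Csrp2, a LIM domain protein of vascular smooth muscle, read 9.07, 8.93 and 8.89 in the knockout hearts, against 10.24, 10.14 and 8.91 in the wild-type hearts. Its difference of -0.80 did not pass (adjusted p = 0.476), but with wild-type replicate 3 left out the difference was -1.23 and passed (adjusted p = 0.00561). The fit without that heart called 1.34% of all probes, against 0.0275% with all arrays. Like Acta2, Csrp2 was high in wild-type replicates 1 and 2 only. Its value in wild-type replicate 3 lay inside the knockout range, so its pass rests on leaving that heart out.

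Myl9 read 10.22, 10.14 and 10.41 in the knockout hearts, against 11.16, 11.22 and 9.86 in the wild-type hearts. Wild-type replicate 3 was here the lowest of all hearts. The difference was -0.49 with all arrays (adjusted p = 0.637) and -0.94 without that heart (adjusted p = 0.0213). Myl9 was named for this order after its values were seen, so its pass without that heart follows from how it was chosen. In that fit 1.34% of all probes were called. Mustn1, a small muscle protein, differed by -0.33 and passed in neither fit. The remaining genes named by the smallest p were higher in every knockout heart than in every wild-type heart without passing: the intermediate filament gene Synm by 0.35 (adjusted p = 0.404) and the actin crosslinker Actn1 by 0.26 (adjusted p = 0.474).

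The order with wild-type replicates 1 and 2 as the highest of the 6 hearts was found in 2 of the 10 genes (20%), Acta2 and Actg2. Among the other lists it ranged from 0% of synthetic state, atrial, macrophage, mesothelial, erythroid and skeletal muscle genes to 35% of 20 pericyte markers and 44.4% of 9 adipocyte markers. It was 10.5% in the paralogs, 6.67% in the platelet-derived growth factor genes and 28.6% in the fibroblast markers. These shares describe the hearts and carry no test.

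**Figure D3:**
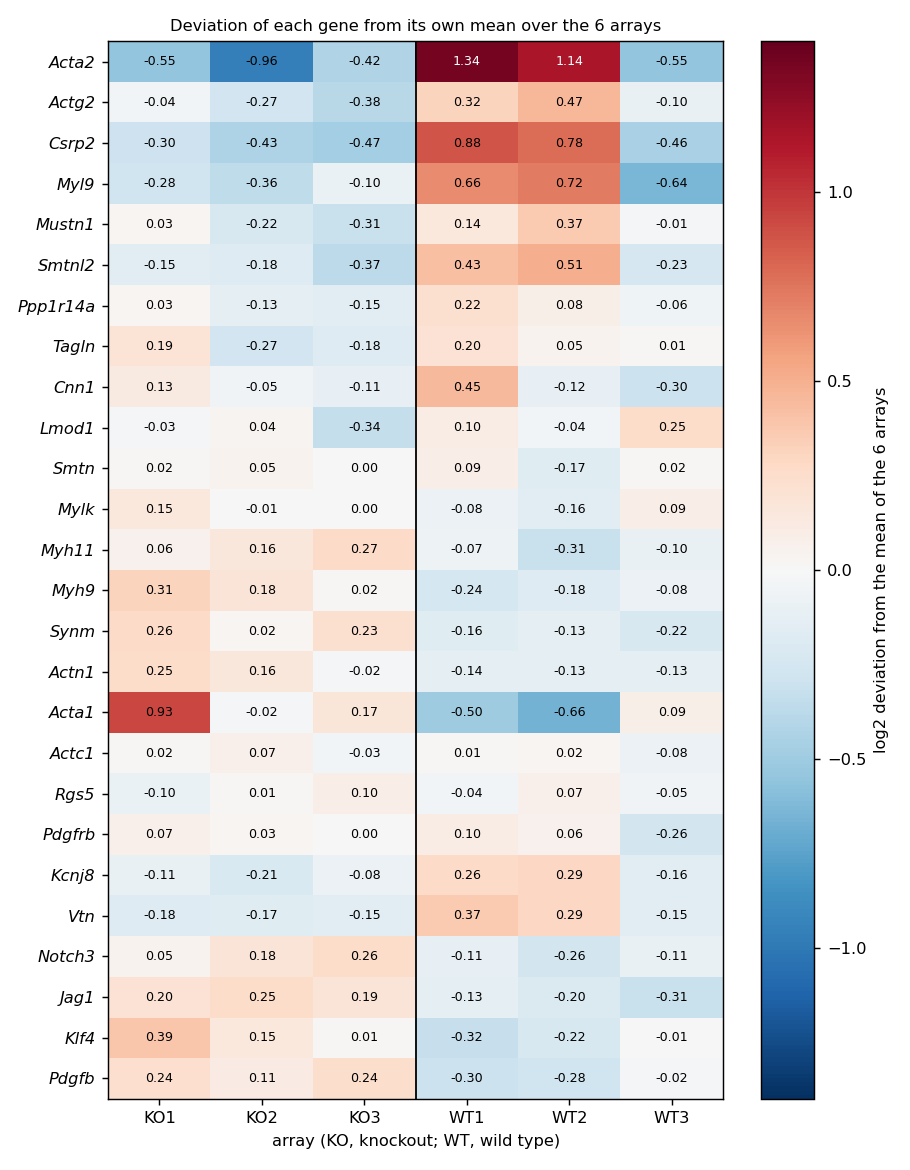
Heat map of the log2 deviation of each gene (rows) from its own mean over the 6 arrays (columns, KO left of WT). Red is above and blue below the mean, with the value in each cell. The rows are a chosen subset of the genes in the lists, so they do not show how common a pattern is. Acta2 deviates by 1.34 and 1.14 in wild-type replicates 1 and 2 and by -0.55 in wild-type replicate 3, a split that Csrp2 and Myl9 share and that Myh11, Smtn and Mylk do not.

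Paralogs of the 10 genes were listed as 20 and measured as 19, with 0 called and a median difference of 0.019. At an unadjusted p under 0.05, 2 were higher and 1 lower, where 9.9% of all probes reached it in either direction. Smtnl2, a smoothelin-like gene, read 8.87, 8.83 and 8.65 in the knockout hearts, against 9.44, 9.52 and 8.78 in the wild-type hearts. It passed without wild-type replicate 3 (-0.70, adjusted p = 0.0416), where 1.34% of all probes did, and not with it (-0.47, adjusted p = 0.488). The value of Smtnl2 in that heart lay inside the knockout range, so its pass rests on leaving that heart out. Myh9, non-muscle myosin heavy chain, was higher in every knockout heart than in every wild-type heart, by 0.33, and did not pass (adjusted p = 0.446).

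Genes of contraction signalling, of which 36 of 45 listed were measured, had a median difference of 0.075, with 0 called. At an unadjusted p under 0.05, 4 were higher and 0 lower, where 9.9% of all probes reached it in either direction. The 4 were Plcb1 (0.43), the phospholipase C downstream of contractile receptors, Prkg1 (0.40), the cyclic GMP kinase that relaxes smooth muscle, Gna12 (0.27), a G protein subunit, and Trpc6, a cation channel whose wild-type values were all below the background level and whose difference has no size here. Their adjusted p-values were between 0.391 and 0.494. These 4 were picked by the smallest p, and they include genes known to contract and genes known to relax the muscle.

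Transcription regulators of smooth muscle, 32 of 32 measured, had a median difference of 0.045 and 0 calls. At an unadjusted p under 0.05, 4 were higher and 0 lower, where 9.9% of all probes reached it in either direction. The 4 were the Notch ligand Jag1 (0.43), the mural cell receptor Notch3 (0.32), the Notch target Hey1 (0.35) and Klf4 (0.37), a factor known to repress contractile genes. They were the 4 of the list with the smallest p, and in each of them every knockout heart lay above every wild-type heart. Over the whole list 18 differences were positive and 14 negative. Without overlap, 6 genes were higher and 2 lower in knockout hearts, where 14.8% of all probes showed no overlap. Notch3 read 8.07, 8.21 and 8.28 in the knockout hearts, against 7.91, 7.76 and 7.92 in the wild-type hearts, and the adjusted p-values of the 4 were between 0.357 and 0.462.

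Pericyte markers, which include Rgs5 and Pdgfrb, were measured as 20 of 21, with 0 called and a median difference of -0.015. At an unadjusted p under 0.05, 1 was higher and 1 lower, where 9.9% of all probes reached it in either direction. Of the 20, 10 differences were positive and 10 negative. Notch3, the one with the smallest p, was higher by 0.32 without overlap and did not pass (adjusted p = 0.431). Kcnj8, a pericyte potassium channel subunit, read 10.32, 10.21 and 10.35 in the knockout hearts, against 10.69, 10.72 and 10.27 in the wild-type hearts, a difference of -0.27 (adjusted p = 0.552). Vtn, vitronectin, differed by -0.34 (adjusted p = 0.500). Kcnj8 and Vtn were high in wild-type replicates 1 and 2 and low in the other 4 hearts, an order that Rgs5 lacked.

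The platelet-derived growth factor pathway, 15 of 15 genes measured, gave 0 calls and a median difference of 0.065. Its ligand Pdgfb read 9.15, 9.02 and 9.15 in the knockout hearts, against 8.60, 8.63 and 8.89 in the wild-type hearts, higher by 0.40 without overlap and not passing (adjusted p = 0.391), while its receptor Pdgfrb showed no such gap. The RGS family, 19 of 20 measured, gave 0 calls. At an unadjusted p under 0.05, 2 were higher and 3 lower, where 9.9% of all probes reached it in either direction. Rgs6, a brake on muscarinic signalling in heart pacemaker cells, had the order of Acta2, with 6.53, 6.78 and 6.39 in the knockout hearts, against 8.10, 8.11 and 6.53 in the wild-type hearts. Its difference of -1.01 (adjusted p = 0.472) became -1.54 without wild-type replicate 3 (adjusted p = 0.00561), in a fit that called 1.34% of all probes. In that heart Rgs6 lay inside the knockout range, so its pass rests on leaving that heart out.

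Markers of other cells that a heart sample holds differed between hearts as well. Adipocyte markers, 8 of 9 measured genes above background, had mean levels of 8.10, 8.01 and 7.99 in the knockout hearts, against 8.84, 8.50 and 8.18 in the wild-type hearts. Wild-type replicates 1 and 2, in which Acta2 was high, had the highest levels. Fibroblast markers, 14 of 14 above background, had mean levels of 10.29, 9.64 and 9.70 in the knockout hearts, against 9.98, 10.15 and 9.70 in the wild-type hearts. They were high in knockout replicate 1, where Acta2 was low. Among the other hearts they were highest in wild-type replicates 1 and 2, where Acta2 was high. Genes of the matrix of large vessel walls, 15 of 15 above background, had mean levels of 10.04, 9.35 and 9.44 in the knockout hearts, against 9.43, 9.64 and 9.44 in the wild-type hearts. Endothelial markers, 16 of 16 above background, spanned 10.30 to 10.46 in the knockout hearts and 10.25 to 10.29 in the wild-type hearts. Erythroid markers, 4 of 10 listed genes measured and 3 of them above background, had mean levels of 8.41, 8.17 and 8.22 in the knockout hearts, against 7.57, 7.72 and 7.87 in the wild-type hearts. In 4 of 4 of them every knockout heart lay above every wild-type heart, where 14.8% of all probes showed no overlap in either direction. Their median difference was 0.50 and 0 were called. The part of these cells in the Acta2 difference was not tested.

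**Figure D4:**
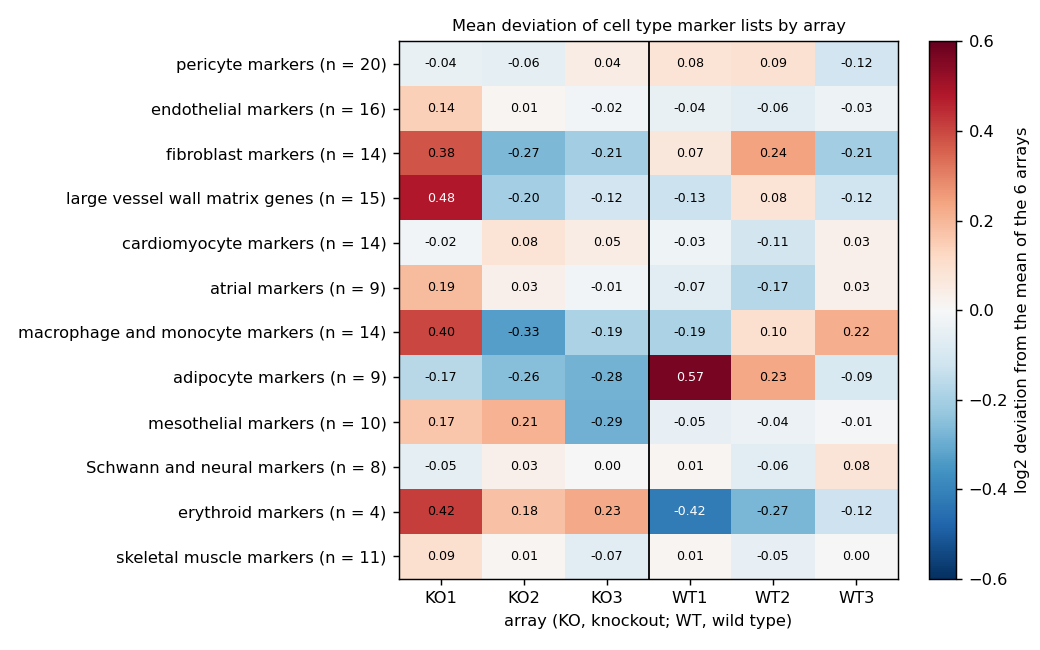
Heat map of the mean log2 deviation of cell type marker lists (rows, with the number of genes measured) from their mean over the 6 arrays (columns, KO left of WT). Adipocyte markers deviate by 0.57 and 0.23 in wild-type replicates 1 and 2, and fibroblast and large vessel wall genes by 0.38 and 0.48 in knockout replicate 1.

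The genes most like the 8 contractile genes over the 6 arrays were taken from 13111 candidates by Pearson's r with their mean profile, as a description with no p. They were Pfkp (r = 0.994), T2 (0.987), Pqbp1 (0.987), Ppp1r14a (0.986) and Ss18l2 (0.981). Ppp1r14a encodes CPI-17, an inhibitor of smooth muscle myosin phosphatase. It read 8.60, 8.44 and 8.43 in the knockout hearts, against 8.79, 8.65 and 8.52 in the wild-type hearts, highest in wild-type replicate 1 and not passing (difference -0.16, adjusted p = 0.643). The profile itself leans on Acta2, and both were highest in wild-type replicates 1 and 2. The order of the lower hearts differed: in knockout replicate 1 the profile stood at -0.0091, while Acta2 deviated by -0.55.

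For the mean profile of Rgs5 and Pdgfrb the 5 most similar genes were Zfp605 (r = 0.989), Spink4 (0.988), Fntb (0.983), Bcorl1 (0.976) and Hivep2 (0.976). Without the 2 arrays farthest from the median of the profile, r was between 0.878 and 0.987 for these genes. All 5 were lowest of the 6 hearts in wild-type replicate 3, as Pdgfrb was, which follows from how they were selected. The mean profile stood at -0.15 in that heart and between -0.014 and 0.068 in the others. Rgs5 itself was lowest in knockout replicate 1, and Rgs5 and Pdgfrb correlated at r = 0.14. The group differences of the 5 similar genes were between 0.011 and 0.18, with adjusted p of at least 0.781.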

How the data were processed

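Trizol and RNeasy columns were used to prepare total RNA of each heart, and biotin-labelled material was run on Affymetrix mouse gene arrays, per the labels' protocols. The authors deposited log2 values, and the submitters' processing notes name RMA and Partek 6.6; a genome build is not given in the sources used here. Array medians lay between 6.92 and 6.97, so the values were used without further normalization. Of 35556 probes, 21789 had exactly 1 gene symbol in the array's annotation, 1621 had several and 12146 were unnamed. Groups were compared with limma 3.58.1 (lmFit, eBayes, two-sided, Benjamini-Hochberg over the 21789 probes, called at an adjusted p under 0.05), which was tested on simulated data. The background level was the 95th percentile of the means of 1205 olfactory and vomeronasal receptor probes. Differences are knockout minus wild type. The genes and lists were chosen with earlier results of these data known. Named genes were the 10, Cenpf, up to 4 per list by the smallest unadjusted p and the 5 most similar by r; others named are said to be chosen after their values were seen. Actc1 was added for its role. Alternatives were 3 other normalizations, a filter on dim probes, all probes as the family, mean probes, 2 variance models, the replicate block and each array left out.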

Additional observations from a re-analysis of the deposited data

How the results depend on the processing

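With 3 hearts a group, small differences of these genes cannot be resolved. Over all named genes 1560 comparisons with an alternative kept their direction and side of the threshold, and 23 changed direction. Another 23 passed only under the alternative, and 9, of Cenpf and Mmp3, passed only with the settings used. The count of the 10 genes called was 0 under all 9 other settings and 0 to 1 with 1 array left out, the 1 being Acta2 without wild-type replicate 3. At an unadjusted p under 0.05 the count was 3, and 0 to 4 with 1 array left out. Probes called numbered 6, and 1 with all probes of the table, 33 with array weights, 11 with the replicate block, 22 with a trend and robust variance, and 1 to 293 with 1 array left out. The median difference of the 10 genes was -0.0063 and ranged from -0.095 to 0.035 with 1 array left out. Replicate numbers did not pair the hearts: same-numbered hearts correlated at -0.114, -0.158 and -0.0031 in their deviations from the group means. Signs changed in genes whose difference was at most 0.18 in size. Cnn1 was 0.0065 after quantile normalization, Pdgfrb -0.0016 with array weights, Stambpl1 -0.089 with array weights, and Hivep2 -0.0037 with array weights and -0.0032 after quantile normalization. With 1 array left out, Cnn1 ranged from -0.18 to 0.20, Smtn from -0.032 to 0.10, Rgs5 from -0.037 to 0.060, Pdgfrb from -0.049 to 0.13, Actc1 from -0.0019 to 0.057, Ankrd22, below background, from -0.24 to 0.063, Stambpl1 from -0.11 to 0.34, Zfp605 from -0.43 to 0.55, Spink4 from -0.040 to 0.15, Fntb from -0.030 to 0.11, Bcorl1 from -0.040 to 0.27 and Hivep2 from -0.062 to 0.065. The cause of these changes was not tested.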

Other observations

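Genes linked to the growth-prone, synthetic state of smooth muscle had a median difference of 0.16, with 13 of 15 listed genes measured. Of these 1 was called, Mmp3, where 0.0275% of all probes were. At an unadjusted p under 0.05, 3 were higher and 0 lower, where 9.9% of all probes reached it in either direction. The list was chosen with earlier results of these data known, and the state of the smooth muscle cells was not tested. Mmp3, stromelysin 1, which degrades matrix, read 8.11, 7.74 and 8.22 in the knockout hearts, against 5.86, 5.93 and 6.18 in the wild-type hearts, where it was below the background level in all 3. Set against that level, it was at least 3.19-fold higher in the knockout hearts. The test used the deposited values and not that bound. Mmp3 passed it (limma, adjusted p = 0.00672), and it passed under 12 of 15 alternative settings. Thbs1, thrombospondin 1, read 8.97, 8.69 and 8.62 in the knockout hearts, against 7.58, 8.23 and 8.61 in the wild-type hearts, and did not pass (0.62, adjusted p = 0.473). Immediate early genes, some of which serum response factor also drives, had a median difference of 0.40, with 25 of 25 measured and 0 called. At an unadjusted p under 0.05, 14 were higher and 0 lower, where 9.9% of all probes reached it in either direction. The part of serum response factor was not tested. Egr1 read 9.28, 9.51 and 9.49 in the knockout hearts, against 8.57, 8.76 and 8.64 in the wild-type hearts, and did not pass (0.77, adjusted p = 0.110). Wild-type replicates 1 and 2 were the highest hearts, as for Acta2, in 1 of the 25 genes.

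The genes beside Acta2 on its chromosome were looked at after the values of Acta2 were seen. Ch25h, cholesterol 25-hydroxylase, read 6.47, 6.68 and 6.48 in the knockout hearts, against 7.004, 7.04 and 7.26 in the wild-type hearts. Every knockout heart was below every wild-type heart, wild-type replicate 3 was the highest, and the difference of -0.56 did not pass (limma, adjusted p = 0.279). Fas differed by -0.29 and Stambpl1 by 0.13, with adjusted p of 0.585 and 0.875, and Ankrd22 was below the background level in every heart. None of the 4 showed the order of Acta2, with wild-type replicates 1 and 2 as the highest hearts.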
